A study of Mus musculus with 6 samples.

Results

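The genes described here are the 10 core planar cell polarity genes of one RNA-seq count table, taken by symbol: Vangl1, Vangl2, Celsr1, Celsr2, Celsr3, Prickle1, Prickle2, Ptk7, Ankrd6 and Fuz. They are 10 of 24421 gene symbols, and all 10 passed the filter on low counts that left 15988 genes to test. The table holds 6 samples of cochlear explants, which are pieces of the inner ear kept in culture, from wild-type mice at postnatal day 2. Each sample was a pool of 6 to 8 cochleae, from which, per the study's culture methods, the tectorial membrane, the modiolus and the precursor of the stria vascularis had been taken off. The 3 neomycin samples had 12 h of culture, 6 h with neomycin at 1 mM, an aminoglycoside that kills hair cells (HCs), and 5 more days of culture with EdU, a label for DNA synthesis, at 10 μM. The 3 control samples are taken as the same culture without neomycin. Their labels call them control, but the protocol text of all 6 samples is the same and names neomycin.

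Planar cell polarity is the alignment of neighboring cells within the plane of an epithelium. Its core proteins gather on opposite sides of each cell border, where the adhesion proteins of the Celsr family bridge the cells, with Frizzled and Dishevelled on one side and Vangl and Prickle on the other. In the organ of Corti this system orients the HC bundles and takes part in the lengthening of the cochlear duct, and mice with mutations in Vangl2, Celsr1 or Ptk7 have misoriented bundles.

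The total count per sample lay between 50471116 and 66068108, and the members had between 70 and 10622 counts in a sample, Celsr3 the fewest and Ptk7 the most. Levels are counts scaled to a common library size (CPM, after the TMM method of edgeR), and values of single samples are given in the order of replicates 1, 2 and 3. The members were highest in control replicate 1 of the control samples in 8 of 10 cases and in neomycin replicate 1 of the neomycin samples in 7 of 10, whereas 34.8% and 37.1% of all genes tested were highest there. Fold changes moved with gene length across the whole table. The median log2 fold change, neomycin over control, was 0.30 in the decile of genes with the shortest summed exons and -0.22 in the decile with the longest, and the members lay in deciles 6 to 10 of length, with the Celsr genes in decile 10. HC markers were present and lower after neomycin. Of 15 HC markers 13 fell, and their summed level was 768 to 887 CPM in control samples against 258 to 319 CPM in neomycin samples, and the most abundant of them, Ocm, had a mean of 303 CPM in control and 28.6 CPM after neomycin. Supporting cell markers summed to 2774 to 3194 CPM in control and 3534 to 3662 CPM after neomycin, with 3 of 12 lower (Fgfr3, Prox1 and Lfng), 2 higher and a median log2 fold change of 0.03. Most of the rise of that sum was in S100a1, with a mean of 1561 CPM in control and 2144 CPM after neomycin. Macrophage markers summed to 90.3 to 119 CPM and 128 to 158 CPM, with 5 of 10 higher. Of 10 endothelial markers 6 fell, all by more than 1.5 times, and the median log2 fold change of the list was -1.40, beside -1.44 for the HC list. The endothelial sum, mostly Emcn, was 365 to 410 CPM in control and 348 to 399 CPM after neomycin, and Pecam1 had a mean of 9.78 CPM and 1.49 CPM. Mesenchymal markers fell in 5 of 12 cases and rose in 2, with sums of 6520 to 7148 CPM and 6781 to 7012 CPM. Markers of Schwann cells and glia fell in 2 of 10 cases and rose in 1, with sums of 654 to 731 CPM and 685 to 705 CPM. Markers are counted as fallen (lower) or risen (higher) at an adjusted p-value under 0.05 (edgeR). At that threshold 16.1% of all genes tested were lower and 12.9% higher. The part of these cell types in the results for the members was not tested.

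Of the 10 members, 4 fell after neomycin and 0 rose at an adjusted p-value under 0.05, by quasi-likelihood tests in edgeR with Benjamini-Hochberg adjustment across the table. Of all genes tested, 29.0% passed that threshold, 16.1% lower and 12.9% higher. Long genes were called lower more often, at 14.7%, 19.2%, 22.8%, 29.2% and 37.8% of genes in length deciles 6, 7, 8, 9 and 10, and of the 4 members that fell Vangl2 was in decile 8 and the Celsr genes in decile 10. DESeq2 and limma-voom also called 0 members higher, and Ankrd6 had an unadjusted p of 0.0425 in edgeR. With the trend on exon length taken out of each sample, 3 members were called lower. Ankrd6 was then called higher (edgeR adjusted p = 0.0378). Of all 15988 genes, 2091 were lower and 1664 higher in that fit. The 4 that fell without this correction were Celsr3, Vangl2, Celsr2 and Celsr1, all of the transmembrane core. With a fold change over 1.5 as well, 1 member fell, Celsr3, and 0 rose, where 8.84% of all genes passed both thresholds, 6.60% lower and 2.24% higher. The control and neomycin values did not overlap for 5 members, the 4 that fell and Ankrd6, where 43.5% of all genes had groups that did not overlap, 22.5% with neomycin lower and 21.0% with neomycin higher. The log2 fold change was below 0 for 8 of the 10 and for 50.5% of all genes. The median log2 fold change of the 10 was -0.12, and that of all genes tested was -0.00. These are bulk samples, in which fewer cells of a type and less RNA per cell cannot be told apart.

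**Figure D1:**
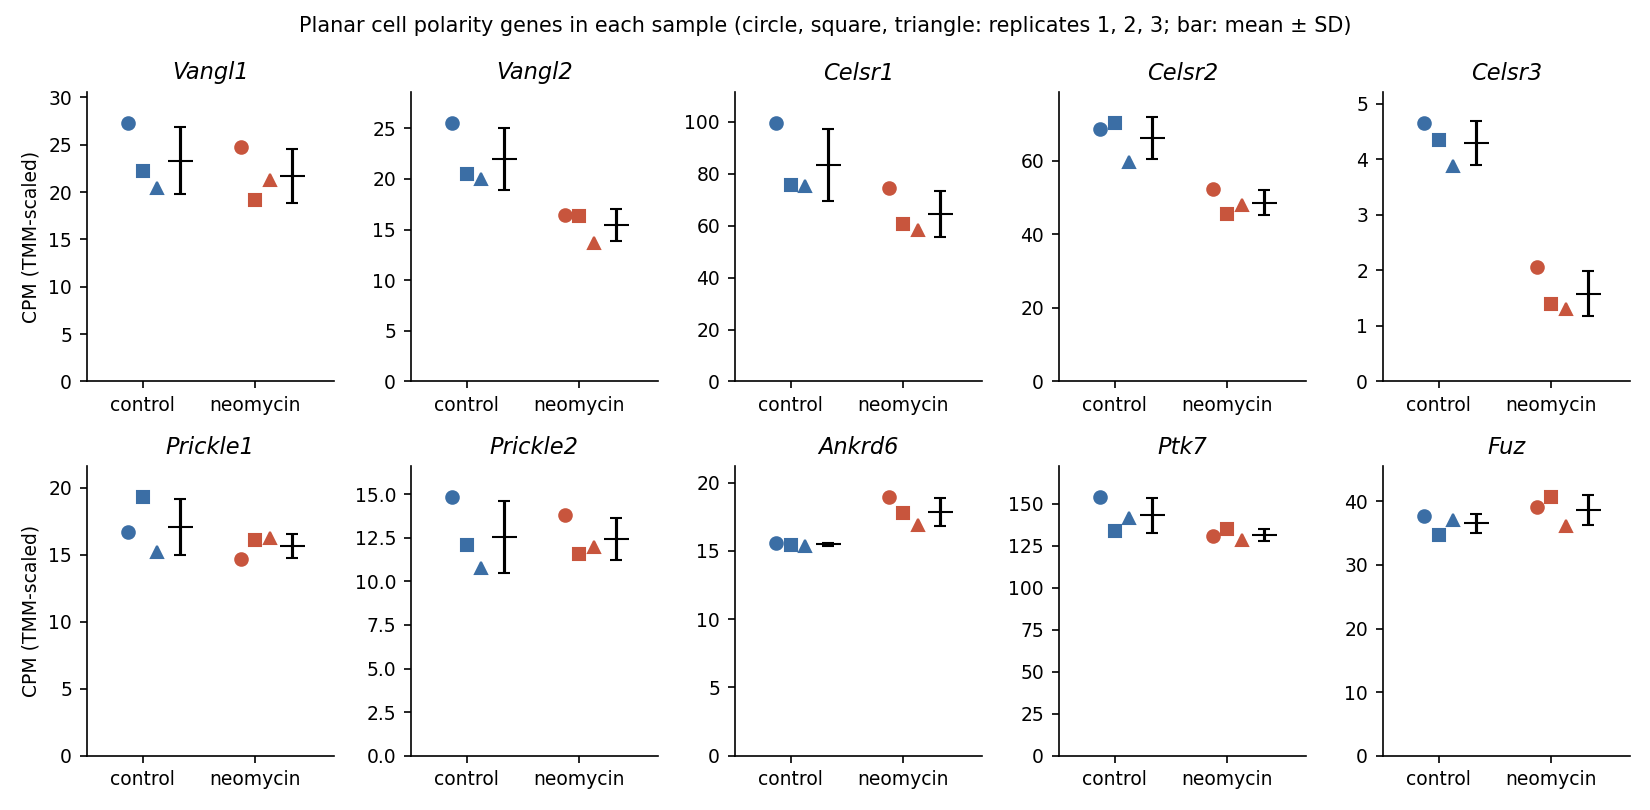
Level of each member in CPM (TMM-scaled, linear axis from 0) in the 3 control and 3 neomycin samples. Each point is a sample, its shape gives the replicate number, and the bar beside each group is the mean ± SD. The groups do not overlap for Vangl2, Celsr1, Celsr2, Celsr3 and Ankrd6, with Ankrd6 alone of these higher after neomycin.

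Celsr genes encode large cadherins that bind their like on the next cell and carry the polarity signal across the border. All 3 fell after neomycin, Celsr3 by far more than the other 2. Celsr1 lost its call with the exon length trend taken out (edgeR adjusted p = 0.206). Their promoters, read from RefSeq (GRCm38.p6) as the 250 bases before the start site on the gene's strand, are shown for Celsr2 and Celsr3, together with that of Vangl2, because these are the members that fell for which the table has an entry. Capitals mark GC boxes, GGGCGG or its reverse complement CCGCCC. For Celsr3 the bases are chr9:108825795-108826044 on the plus strand, for Celsr2 chr3:108415580-108415829 on the minus strand, and for Vangl2 chr1:172027296-172027545 on the minus strand, before a RefSeq start site that lies inside the longer GENCODE span of the gene.
Celsr3: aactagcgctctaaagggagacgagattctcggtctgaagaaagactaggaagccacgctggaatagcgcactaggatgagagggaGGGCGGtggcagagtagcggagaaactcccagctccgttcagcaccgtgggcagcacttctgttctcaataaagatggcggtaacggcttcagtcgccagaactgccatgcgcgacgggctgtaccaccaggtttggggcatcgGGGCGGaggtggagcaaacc
Celsr2: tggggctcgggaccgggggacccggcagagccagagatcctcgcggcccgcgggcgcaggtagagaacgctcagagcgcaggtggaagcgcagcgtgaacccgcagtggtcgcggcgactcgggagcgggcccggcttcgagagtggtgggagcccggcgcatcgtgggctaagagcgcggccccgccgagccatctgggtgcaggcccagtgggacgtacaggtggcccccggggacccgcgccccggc
Vangl2: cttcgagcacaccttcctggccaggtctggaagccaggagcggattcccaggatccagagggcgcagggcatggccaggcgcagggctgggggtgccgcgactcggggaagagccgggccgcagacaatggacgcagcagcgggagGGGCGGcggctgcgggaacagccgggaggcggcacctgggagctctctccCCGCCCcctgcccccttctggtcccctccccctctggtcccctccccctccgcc
The GC content was 58.0% for Celsr3, 75.2% for Celsr2 and 73.6% for Vangl2, against a median of 52.4% over all 32851 promoters of the table. Celsr3 and Vangl2 had 2 GC boxes each and Celsr2 had 0, where 32.7% of all promoters held one. The TEAD motif GGAATG, read on both strands, was in none of these 3 and in 12.6% of all promoters. The TCF/LEF motif CTTTGA was in none of the 3 either, against 13.8% of all, and the RBPJ motif TGGGAA was in that of Vangl2 and in 21.6% of all. Over the 14 start sites listed for 8 of the members, 9 had a GC box, 3 the RBPJ motif, 1 the TEAD motif and 1 the TCF/LEF motif. Celsr1 and Vangl1 have no entry.

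Celsr3, which in the nervous system guides growing axons, lies on chromosome 9 of mm10 from 108826320 to 108852969. It had 4.65, 4.35 and 3.88 CPM in the control samples and 2.05, 1.39 and 1.30 CPM in the neomycin samples. Every neomycin sample was far below every control sample. The control mean was 4.29 ± 0.390 CPM and the neomycin mean 1.58 ± 0.410 CPM (SD, n = 3), and the log2 fold change stood at -1.44 ± 0.22 (SE, edgeR adjusted p = 0.000808), or a fall of 63.2%. Among all genes tested this log2 fold change stood at percentile 2.04 from the lowest. It passed both thresholds in each of 16 alternative analyses, with log2 fold changes from -1.67 to -1.23 and adjusted p-values up to 0.00656. HC markers and 6 of 10 endothelial markers moved the same way, as given above, and so did part of a list of neuronal markers, of which 4 of 11 tested fell and 1, Syt1, rose. The summed level of all 12 neuronal markers was 208 to 299 CPM in control and 196 to 213 CPM after neomycin, and the only one with a sample at 0 was Neurod1. The part of these cell types in the fall of Celsr3 was not tested.

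Celsr2 lies on chromosome 3 from 108390851 to 108415552. It had 68.7, 70.2 and 59.6 CPM in control and 52.1, 45.5 and 48.1 CPM in the neomycin samples. The neomycin samples all lay below the control samples, and the gap between the groups was wider than the range within the neomycin group. From 66.2 ± 5.73 to 48.5 ± 3.37 CPM (SD, n = 3), the log2 fold change was -0.45 ± 0.08 (SE, edgeR adjusted p = 0.00238), a fall of 26.6%. With the trend on exon length taken out of each sample, it was -0.24 (edgeR adjusted p = 0.0162).

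Celsr1, on chromosome 15 from 85898929 to 86033777, is the Celsr gene best known for polarity in epithelia. The control samples had 99.6, 75.8 and 75.2 CPM and the neomycin samples had 74.6, 60.6 and 58.5 CPM. Replicate 1 was well above the other two in both groups, and the groups were parted by a narrow gap. The log2 fold change was -0.37 ± 0.12 (SE, edgeR adjusted p = 0.0326), from 83.5 ± 13.9 to 64.6 ± 8.76 CPM (SD, n = 3). Celsr1 kept an adjusted p under 0.05 in 12 of 16 alternative analyses. The adjusted p was 0.206 with the exon length trend taken out (log2 fold change -0.17), 0.135 without control replicate 1, 0.132 without neomycin replicate 2 and 0.115 without neomycin replicate 3. Without both replicates numbered 1, a choice made after these values were seen, it was 0.00783 (log2 fold change -0.34, edgeR). In that fit 4 of the 10 members were called lower, beside 2091 of all 16067 genes tested.

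Vangl1 and Vangl2 encode membrane proteins that hold Prickle at the border, and Vangl2 is the gene of the looptail mouse. Vangl2 fell after neomycin and Vangl1 did not pass the test. Vangl2, on chromosome 1 from 172000960 to 172028444, had 25.5, 20.5 and 19.96 CPM in the control samples and 16.4, 16.3 and 13.7 CPM in the neomycin samples. All neomycin values were under all control values. Its log2 fold change was -0.51 ± 0.12 (SE, edgeR adjusted p = 0.00750), from 22.0 ± 3.08 to 15.5 ± 1.56 CPM (SD, n = 3), a fall of 29.7%. The adjusted p stayed under 0.05 in each of 16 alternative analyses, up to 0.0336 without neomycin replicate 3, and the log2 fold change with the length trend taken out was -0.39.

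Vangl1, on chromosome 3 from 102153583 to 102204693, had 27.3, 22.3 and 20.4 CPM in the control samples and 24.7, 19.1 and 21.3 CPM in the neomycin samples. The groups overlapped, with neomycin replicate 1 above 2 of the control samples. Its log2 fold change was -0.11 ± 0.12 (SE, 95% interval -0.37 to 0.16, edgeR adjusted p = 0.551). The estimate for Vangl2 lay outside this interval, but the 95% interval of Vangl2, -0.76 to -0.25, overlapped it. The direction for Vangl1 was not settled, since its value was 0.013 with the exon length trend taken out and 0.031 without control replicate 1.

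**Figure D2:**
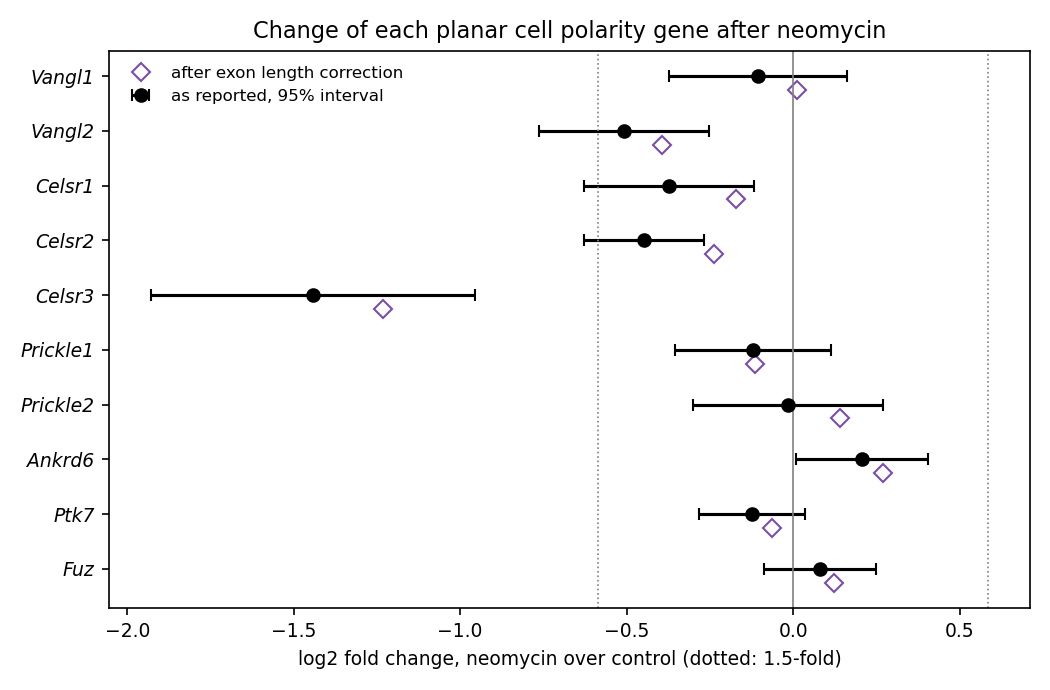
Log2 fold change, neomycin over control, of each member, with its 95% interval from the edgeR fit over 6 samples (black) and the value after the trend on exon length was taken out of each sample (open diamond). Dotted lines mark a fold change of 1.5. Celsr3 alone lies beyond the dotted line, and the intervals of Vangl2, Celsr1, Celsr2 and Celsr3 lie below 0 and that of Ankrd6 just above it.

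The cytoplasmic members did not pass the test in either direction. Prickle1 and Prickle2 encode LIM domain proteins that join Vangl at the border and oppose Dishevelled, and Ankrd6 encodes Diversin, an ankyrin repeat protein that acts with Dishevelled. Prickle1, on chromosome 15 from 93499114 to 93595891, had 15.2 to 19.3 CPM in control and 14.7 to 16.3 CPM after neomycin, with a log2 fold change of -0.12 (95% interval -0.36 to 0.11, edgeR adjusted p = 0.426). Prickle2, on chromosome 6 from 92370908 to 92706155, had 10.7 to 14.8 CPM in control and 11.6 to 13.8 CPM after neomycin, with a log2 fold change of -0.02 (95% interval -0.30 to 0.27, edgeR adjusted p = 0.942). For both Prickle genes the groups overlapped, and both intervals exclude a fold change of 1.5. The sign of the Prickle2 estimate turned in 6 of 16 alternatives, and its highest value was 0.15.

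Ankrd6, on chromosome 4 from 32804035 to 32950841, was the one member that was higher in all neomycin samples than in all control samples. It had 15.6, 15.5 and 15.4 CPM in the control samples and 18.9, 17.8 and 16.9 CPM in the neomycin samples. Its control values were the closest together of any member, with a coefficient of variation of 0.825% against a median of 9.19% over all genes, which is less than counting error alone gives at these counts. The log2 fold change was 0.21 ± 0.09 (SE, unadjusted p = 0.0425, edgeR adjusted p = 0.108), which did not pass the threshold. With the exon length trend taken out it was 0.27 (edgeR adjusted p = 0.0378), and of the 50-base words in its annotated transcripts 1.44% also occur in transcripts of other genes.

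Ptk7, a tyrosine kinase-like receptor without kinase activity that works with the core proteins, and Fuz, which acts downstream of them in building cilia, did not pass the test. Ptk7, on chromosome 17 from 46564471 to 46629504, had 154, 134 and 142 CPM in the control samples and 131, 135 and 128 CPM in the neomycin samples. Neomycin replicate 2 was just above control replicate 2, and the log2 fold change was -0.12 (95% interval -0.28 to 0.04, edgeR adjusted p = 0.2297). Fuz, on chromosome 7 from 44896079 to 44902631, had 34.8 to 37.8 CPM in control and 36.1 to 40.7 CPM after neomycin, with a log2 fold change of 0.08 (95% interval -0.09 to 0.25, edgeR adjusted p = 0.465). Both intervals exclude a fold change of 1.5 in either direction. Of the 50-base words in the annotated Fuz transcripts, 28.2% also occur in transcripts of Ap2a1 or D7Bwg0826e on the opposite strand. How reads from this shared sequence were counted is not known. The Fuz counts could hold reads of these genes or lack reads of Fuz if strand was not used.

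**Figure D3:**
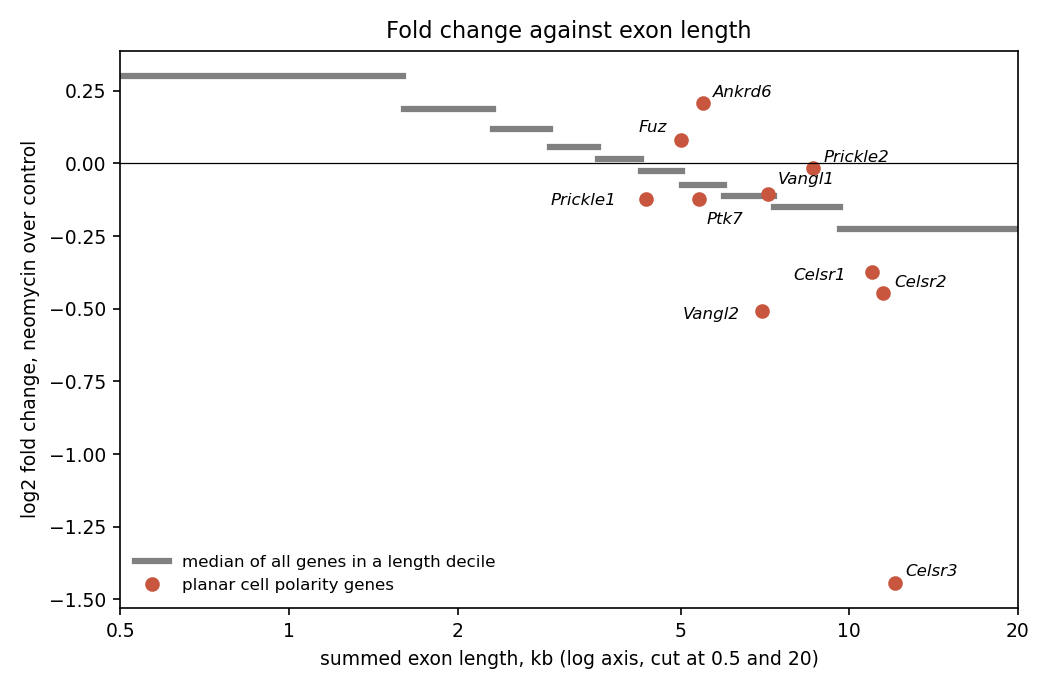
Log2 fold change, neomycin over control, against summed exon length in kb (log axis, cut at 0.5 and 20 kb). Grey bars are the medians of all tested genes in each decile of exon length, falling from 0.30 to -0.22, and red points are the 10 members. Celsr3 and Vangl2 lie farthest below the bar at their length, with Celsr2 and Celsr1 also below theirs. Ankrd6, Prickle2 and Fuz lie above theirs.

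Between paralogs, the ratio of counts within a sample does not depend on how libraries are scaled. No 50-base word was shared between the Vangl genes, among the Celsr genes or between the Prickle genes in the annotated transcripts. The log2 ratio of Vangl2 to Vangl1 was -0.10, -0.12 and -0.03 in control and -0.59, -0.23 and -0.64 after neomycin. The 2 genes were thus close to even in control, and Vangl2 had fewer counts than Vangl1 in every neomycin sample by more than in any control sample. The mean ratio went from -0.08 ± 0.05 to -0.49 ± 0.22 (SD, n = 3; exact two-sided permutation test, p = 0.1, adjusted over 5 ratios p = 0.167), and 0.1 is the smallest p that 3 samples against 3 allow.

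The log2 ratio of Celsr3 to Celsr1 went from -4.27 ± 0.15 to -5.37 ± 0.16, and that of Celsr3 to Celsr2 from -3.95 ± 0.06 to -4.97 ± 0.27 (SD, n = 3; exact two-sided permutation test, p = 0.1 for each, adjusted p = 0.167). The groups did not overlap for either, and the ratio of Celsr3 to each paralog was lower in all neomycin samples, with no p under 0.05 open to this design. Celsr2 to Celsr1 was -0.33 ± 0.21 in control and -0.41 ± 0.12 after neomycin (SD, n = 3; exact permutation test, p = 0.7, adjusted p = 0.7), and Prickle2 to Prickle1 was -0.45 ± 0.26 and -0.34 ± 0.22 (SD, n = 3; exact permutation test, p = 0.5, adjusted p = 0.625). Per kb of exon, Celsr3 made up 2.61% ± 0.0989 of the counts of the 3 Celsr genes in control and 1.27% ± 0.187 after neomycin (SD, n = 3), while Celsr1 made up 55.3% ± 3.57 and 57.3% ± 1.86.

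**Figure D4:**
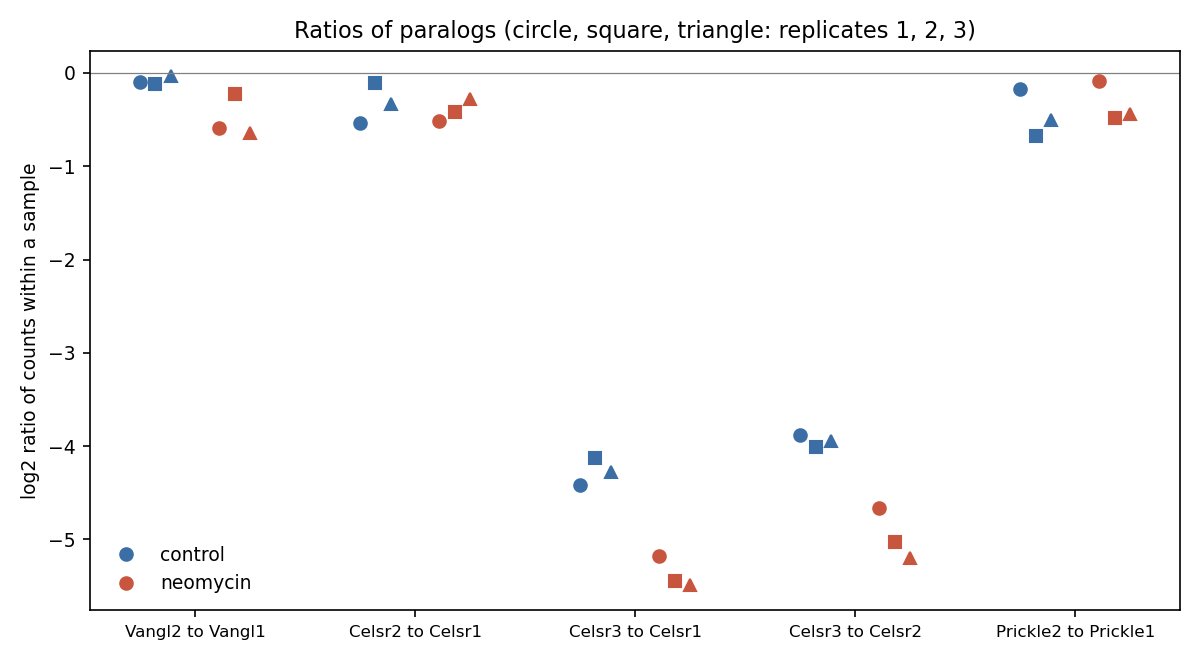
Log2 ratio of the counts of 2 paralogs within each sample, for the 5 pairs, with control in blue and neomycin in red and the replicate number given by the shape. The groups do not overlap for Vangl2 to Vangl1, Celsr3 to Celsr1 and Celsr3 to Celsr2, where the neomycin samples are lower, and they overlap for the other two.

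Levels of different genes were compared as CPM per kb of summed exon length. In control samples Ptk7 was the highest member at 26.6 ± 1.89 CPM per kb (SD, n = 3), at percentile 87.8 of all genes tested. Celsr1 followed at 7.59 ± 1.26 and Fuz at 7.30 ± 0.312 CPM per kb, and the control samples of these 2 overlapped. Celsr2 stood at 5.75 ± 0.498 CPM per kb, under every Fuz sample. The Fuz level could hold reads of genes on the opposite strand or lack reads of Fuz, as stated above, so its place in this order is uncertain. Prickle1, Vangl1 and Vangl2 came next at 3.93 ± 0.477, 3.26 ± 0.497 and 3.14 ± 0.440 CPM per kb, each overlapping the next. Ankrd6, at 2.82 ± 0.0233 CPM per kb, lay just under the lowest Vangl2 sample. Prickle2 at 1.45 ± 0.241 and Celsr3 at 0.356 ± 0.0323 CPM per kb closed the order without overlap, with Celsr3 at percentile 12.8. After neomycin Vangl2, at 2.21 ± 0.224 CPM per kb, was below Ankrd6 at 3.26 ± 0.187 CPM per kb.

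Among all genes with a mean of at least 1 CPM, those whose pattern over the 6 samples was nearest to that of Celsr3 were Mycbpap, Ptch1 and Syt14. Their log2 CPM, centred on the mean of the 6 samples, differed from that of Celsr3 by a root mean square of 0.10, 0.11 and 0.11. The log2 fold changes of these genes were -1.38, -1.502 and -1.44. They were picked from 14035 genes for this likeness, which is therefore a description.

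A list of 44 other genes of planar cell polarity and of HC orientation gives the setting of the members. Of these 44, 13 fell and 3 rose at the same adjusted threshold, and 4 of those that fell also passed a fold change of 1.5, against 16.1%, 12.9% and 6.60% of all genes. The median log2 fold change of the list was -0.17, against -0.00 for all genes tested, and that of the list was -0.06 with the exon length trend taken out. The calls then were 10 lower and 7 higher, and with libraries scaled by total counts alone they were 18 lower and 2 higher. The 4 genes that fell by more than 1.5 times were Ror1, Insc, Ccdc88c and Dvl3, and the 3 that rose were Dact1, Fjx1 and Dvl2.

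Of the other core genes, 5 encode Frizzled or Dishevelled proteins, the partners of Vangl and Prickle on the other side of the border. Of these 5, Dvl3 and Fzd6 fell and Dvl2 rose, where 16.1% of all genes fell and 12.9% rose. The remaining 2 are Prickle genes, of which Prickle4 fell, with a log2 fold change of -0.54 (edgeR adjusted p = 0.0282), and Prickle3, at -0.10, did not pass. Dvl3, one of the Dishevelled genes that relay the signal from Frizzled, had 27.6, 22.2 and 16.2 CPM in the control samples and 12.3, 11.5 and 11.7 CPM in the neomycin samples. The control samples were spread widely and the neomycin samples lay close together below them. Its log2 fold change was -0.89 ± 0.16 (SE, edgeR adjusted p = 0.00166). Dvl2, by contrast, had a log2 fold change of 0.20 (edgeR adjusted p = 0.0468), and its adjusted p was 0.206 with libraries scaled by total counts alone. The Frizzled receptor of this core that fell was Fzd6, at -0.30, while Fzd3, known for the same role in the ear, had 0.04.

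Of 7 Wnt ligands and co-receptors 2 fell, Ror1 and Gpc4, against 16.1% of all genes. Ror1, a receptor for Wnt5a, had 6.77, 5.19 and 4.47 CPM in the control samples and 2.77, 2.41 and 3.02 CPM in the neomycin samples. All neomycin samples were lower, and the log2 fold change was -1.01 ± 0.20 (SE, edgeR adjusted p = 0.00300). Wnt5a itself had 193 CPM in control and 169 CPM after neomycin, a log2 fold change of -0.19 that did not pass the test. In the Fat and Dachsous system, another polarity system of giant cadherins, Dchs1 fell by a small margin and Fat4 did not pass the test. Dchs1 had 51.5, 38.2 and 33.6 CPM in the control samples and 32.8, 32.8 and 29.5 CPM in the neomycin samples. Its log2 fold change was -0.38 (edgeR adjusted p = 0.0458), and the groups were parted by a narrow gap. Fjx1, a kinase gene of that system, had a log2 fold change of 0.32 (edgeR adjusted p = 0.00839).

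Among 8 scaffold and trafficking genes 2 fell and 1 rose, against 16.1% and 12.9% of all genes. Smurf1, a ubiquitin ligase gene that targets Prickle, had a log2 fold change of -0.48 ± 0.08 (SE, edgeR adjusted p = 0.000993), and Dact1, which encodes a Dishevelled-binding protein, had 0.53 ± 0.11 (SE, edgeR adjusted p = 0.00417). Scrib and Sec24b, which act with Vangl2, had -0.17 and -0.23 and did not pass. Of 11 effectors 3 fell, with Intu, which like Fuz belongs to the ciliary effectors, at -0.53 (edgeR adjusted p = 0.00392) and the others being Daam2 and Rock2.

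Genes that orient the bundle inside the HC itself fell in 2 of 8 cases, against 16.1% of all genes. Both also passed a fold change of 1.5, against 6.60% of all genes. Of the 8, 4 had a log2 fold change below 0 and 4 above, with a median of -0.05. Insc, which encodes Inscuteable and acts with Gpsm2 at the bare zone of the HC surface, had 24.7, 26.8 and 27.5 CPM in the control samples and 11.9 to 14.5 CPM in the neomycin samples. Its neomycin samples lay far below all control samples, and the log2 fold change was -1.003 ± 0.10 (SE, edgeR adjusted p = 3.08e-05). Ccdc88c, which encodes Daple, a Dishevelled-binding protein that positions the bundle, had 21.2, 21.2 and 18.3 CPM in control, 13.1, 10.6 and 8.23 CPM after neomycin and a log2 fold change of -0.93 ± 0.15 (SE, edgeR adjusted p = 0.000857). Gpsm2 at -0.19 and Gnai3 at 0.05 did not pass. HC markers fell in the same samples, and their part in these 2 changes was not tested.

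**Figure D5:**
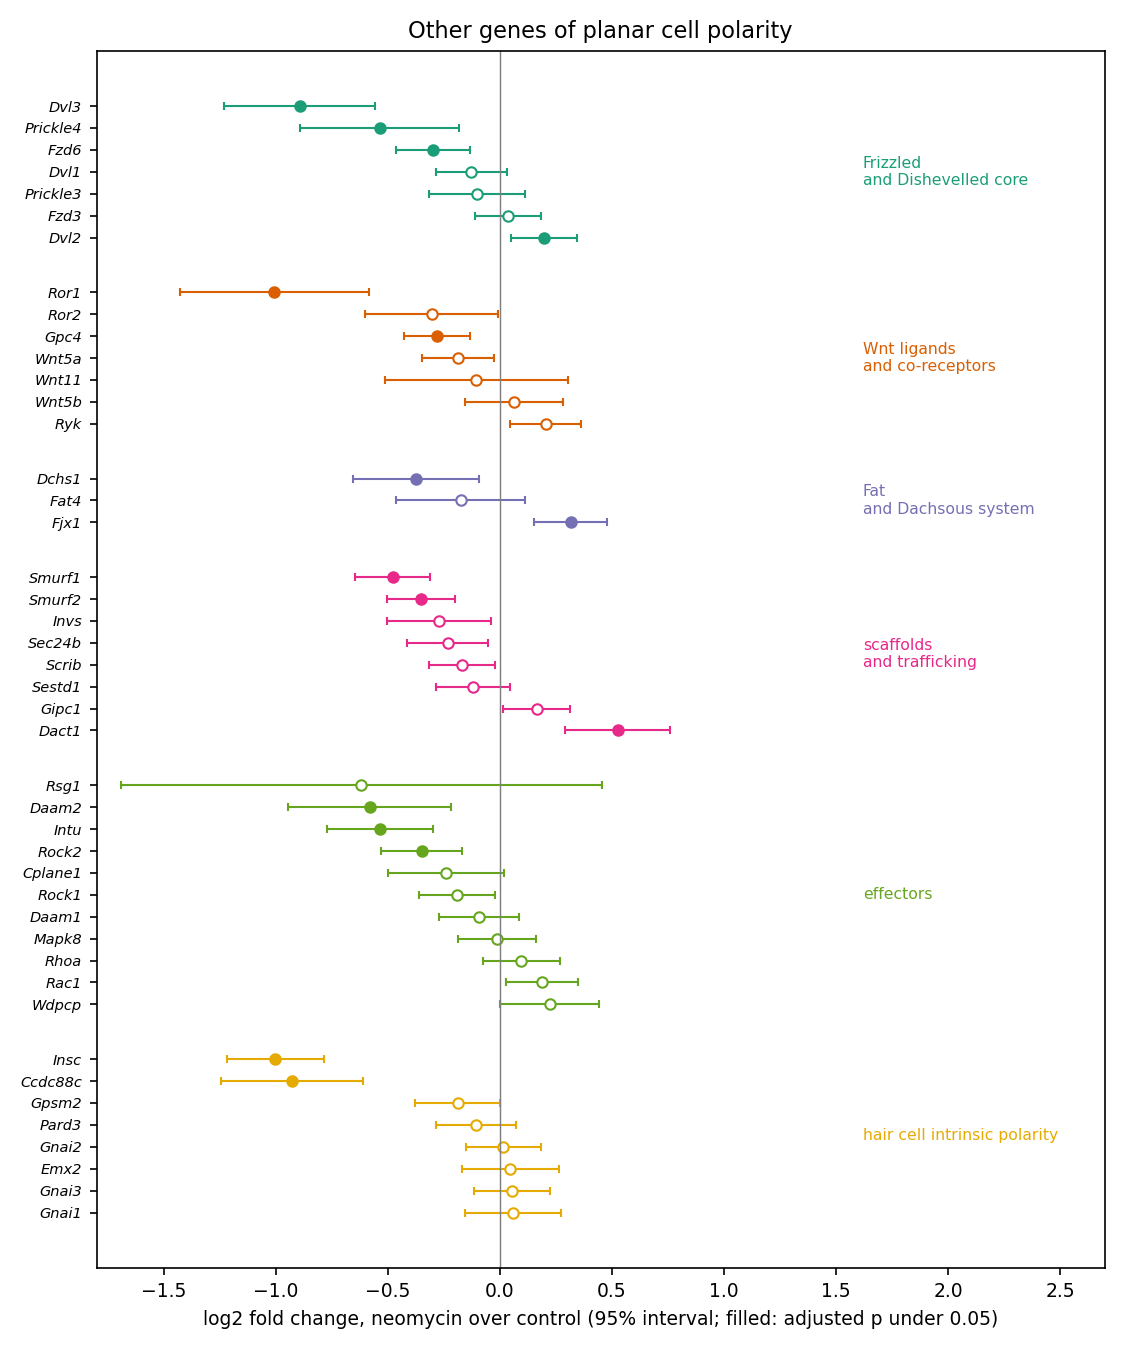
Log2 fold change, neomycin over control, of 44 other genes of planar cell polarity, grouped by role, with 95% intervals from the edgeR fit over 6 samples. Filled points passed an adjusted p-value under 0.05. Ror1, Insc, Ccdc88c and Dvl3 lie farthest to the left among the filled points, and Dact1 farthest to the right.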

How the data were processed

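RNA was sequenced from 3 control and 3 neomycin samples. Per the submitters' processing notes and the study's methods, base calling used CASAVA 1.8, trimming Trimmomatic 0.23, alignment to mm10 HISAT2, and counting HTSeq with a UCSC gene annotation. What the authors deposited are raw counts by gene symbol. Strand setting and treatment of multiply mapped reads are not given in the sources used here.

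Libraries were scaled by TMM and genes filtered with filterByExpr in edgeR 4.0.16 (R 4.3.3), and all 15988 genes left were tested in a single quasi-likelihood fit. Calls needed an adjusted p-value under 0.05 and, where stated, a fold change over 1.5, as in the study, which used DESeq2. Standard errors were taken as the size of the log2 fold change over the root of its F statistic. No source says whether pools came from separate litters, so p-values measure the spread between these samples. Within groups, pairs of replicates differed beyond counting noise (chi-square per gene 13.4 to 44.9).

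Positions and exon lengths (union of exons) came from GENCODE vM21 on GRCm38, the mm10 build, matched for 23334 symbols directly and 654 by synonym. The length correction took from each sample the lowess trend (span 0.3) of log2 ratios on exon length, known for 99.0% of tested genes. DESeq2 1.42.0 and limma 3.58.1 served as alternatives, and the code was tested on simulated data. Members and gene lists were chosen with earlier results of these data known. All members are named. Of the other polarity genes, those past both thresholds and the gene of smallest adjusted p in each role are named by rule, as are the 3 genes nearest to a member past both thresholds and the most abundant markers. Further genes were named after their values were seen.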

Additional observations from a re-analysis of the deposited data

How the results depend on the processing

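Results were recomputed under 16 alternatives, namely DESeq2, limma-voom, 3 other scalings, 2 other filters, a replicate block, each of the 6 samples left out, and an exon length correction without and with the block. Between 3 and 5 members passed the adjusted threshold, and Celsr3 was in each case the 1 member past both. The members called were not the same throughout. With the length correction 3 were lower and 1, Ankrd6, higher, beside 2091 lower and 1664 higher of all genes. With the block as well, 4 were lower and 1, Ankrd6, higher, beside 2491 and 2204 of all genes. Vangl1 turned positive with the length correction (0.013, and 0.015 with the block) and ran from -0.21 to 0.031 with a sample left out, positive without control replicate 1. Prickle2 turned positive with upper quartile scaling (0.0055) and the length correction (0.14, and 0.15 with the block), and ran from -0.11 to 0.13 with a sample left out, positive without control replicate 1, neomycin replicate 2 or neomycin replicate 3. Without both replicates numbered 1, a choice made after seeing the data, it was 0.04. With a sample left out, the group difference in the log2 ratio of Celsr2 to Celsr1 ran from -0.18 to 0.0299, positive without control replicate 2, and that of Prickle2 to Prickle1 from -0.013 to 0.25, negative without control replicate 2 (-0.0018) or neomycin replicate 1. The 4629 genes past the adjusted threshold became 2518 to 5341 with a sample left out, at 2518 without neomycin replicate 2, 2567 without control replicate 2 and 3001 without neomycin replicate 3, in fits of fewer samples. Under total count scaling the median of all genes moved to -0.07, calls were 3200 lower and 1349 higher in place of 2571 and 2058, 7 other polarity genes in place of 4 passed both thresholds, and the control mean of Ankrd6 was 15.8 in place of 15.5 CPM. Whether the replicate numbers pair the samples was not settled, and the main fit left them unpaired. Same-numbered deviations from the group means correlated at 0.165, 0.0264 and 0.0949 for replicates 1, 2 and 3. Control replicates 1 and 3 correlated best with their own number, and control replicate 2 best with neomycin replicate 3 (0.0325). With the replicate block 4 members passed, as without it, and 6014 genes in all. Celsr1 had an adjusted p of 0.000749 in edgeR with the block and 0.0470 with the block and length correction, which without the block lost its call. Causes of these changes were not tested beyond what is stated. Among the members Celsr3 had the fewest counts, 70 to 321 a sample.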
